A study of Mus musculus with 10 samples.

Results

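Id1, Id2 and Id3 encode members of the inhibitor of DNA binding family, small helix-loop-helix proteins. They were picked by Ensembl identifier under a rule that uses no measured value, although the family was chosen with earlier results of these data known. They are 3 of the 49671 gene rows in the count table, and all 3 were among the 11247 genes that passed a filter on low counts and were tested. Id1 passed that filter with 43 counts over all 10 libraries. Of these, 22 lay in SCF plus TGF-β at 10 ng/mL and 6 in TGF-β alone at 10 ng/mL. Its passing rested on replicate 2 of SCF plus TGF-β at 10 ng/mL, with 12 counts. Id4, the remaining mouse family member, had 0 counts in all 10 libraries. That allows at most 3 counts a library, 1.26 to 2.55 CPM (the count scaled to a common library size) at these depths. The Id4 locus overlaps 2 other annotated genes, and any Id4 reads left out as ambiguous for that reason are not covered by this limit.

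The study asked how transforming growth factor β (TGF-β), stem cell factor (SCF) or their combination change RNA levels in mast cells. Bone marrow-derived mast cells (BMMCs), mast cells grown out of marrow in culture, came from wild-type C57BL/6 mice, for which the labels give an age of 6 to 8 weeks. The cultures had been kept in interleukin 3 (IL-3) for 6 to 8 weeks, at 5 ng/mL in the growth protocol and 10 ng/mL in the sample source, a difference that the labels do not resolve. All groups were grown in IL-3, so cells called IL-3 alone are those with neither SCF nor TGF-β added. SCF plus TGF-β at 1 ng/mL had 2 libraries, as did SCF plus TGF-β at 10 ng/mL, both after 72 h and with no SCF dose in their labels. SCF at 100 ng/mL for 72 h also had 2 libraries. TGF-β alone had 1 library at 1 ng/mL and 1 at 10 ng/mL, both after 72 h. IL-3 alone had 2 libraries, with no time in the treatment label. No label tells whether the libraries of a group were separate cultures. The p-values therefore speak of the spread among these libraries alone, and that spread may be technical.

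Gene counts ranged from 1237382 to 2323916 a library. The lowest were the libraries of TGF-β alone, with 1295048 at 1 ng/mL and 1237382 at 10 ng/mL. The library at 1 ng/mL also had the lowest share of reads in genes (16.4%) and the highest share not unique (55.6%). The protocol names no molecular identifiers, and PCR copies of a molecule count more than once, so the limit set by 3 counts and the counting intervals cover counting error only. All 7 mast cell markers examined were present in every library, and their summed level ran from 33122 to 62755 CPM. Summed markers of neutrophils, fibroblasts and erythroid cells reached at most 5.05 CPM in any library. The macrophage list summed to 10.5 to 18.4 CPM (3 of 5 markers with any count), the eosinophil list to at most 10.1 CPM (1 of 4) and the lymphocyte list to 4.00 to 12.5 CPM (2 of 5). The basophil list summed to 456 to 702 CPM (3 of 3) and the endothelial list to 437 to 751 CPM, all of it from Pecam1 and Tek. C1qb (macrophage), Cd3e (lymphocyte), Epx and Prg2 (eosinophil) and Cdh5 and Kdr (endothelium) were at 0 throughout. In these bulk samples, fewer cells of a type and less RNA per cell cannot be told apart.

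Id proteins carry the helix-loop-helix that pairs transcription factors with each other but lack the basic stretch that touches DNA. They bind the E proteins (encoded by Tcf3, Tcf4 and Tcf12) and keep them from E-box sites in DNA, and through this they are known for holding back differentiation in many blood lineages. Id1 and Id3 are classical targets of bone morphogenetic protein (BMP) signalling through SMAD1 and SMAD5, whereas TGF-β, which acts mainly through SMAD2 and SMAD3, can raise or lower Id genes depending on the cell type.

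The shared helix-loop-helix is visible in the coding sequences. The lines below, read from GENCODE vM21 transcripts on GRCm38, show the 60 coding bases with the most positions in common, because they bear on whether reads of the 3 genes could be confused. Capitals mark bases identical in all 3 genes.
Id1: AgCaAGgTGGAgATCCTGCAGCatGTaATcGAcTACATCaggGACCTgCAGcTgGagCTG
Id2: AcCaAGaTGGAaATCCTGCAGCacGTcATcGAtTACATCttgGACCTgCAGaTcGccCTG
Id3: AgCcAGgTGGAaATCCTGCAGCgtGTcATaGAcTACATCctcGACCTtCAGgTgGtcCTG
Of these 60 bases, 43 were identical in all 3 genes. Over the whole length of 1 transcript per gene, read on the same strand, the longest exact run shared between any 2 was 19 bases. It lay between Id2 and Id3, against a read length of 38 bases. A 38-base read that matches 1 of these 3 transcripts exactly therefore matches neither of the others exactly on that strand. Other transcripts of the genes and the opposite strand were not compared.

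Id1 (ENSMUSG00000042745) lies at chr2:152736251-152737410 on the plus strand and Id3 (ENSMUSG00000007872) at chr4:136143497-136145755 on the plus strand. Id2 (ENSMUSG00000020644) lies at chr12:25093799-25097140 on the minus strand. All 3 are protein-coding and none overlaps another annotated gene.

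Id3 was the member that moved most. In the series with SCF it had 33.0 and 45.4 CPM with SCF, 47.2 and 86.1 CPM with SCF plus TGF-β at 1 ng/mL, and 328 and 167 CPM with SCF plus TGF-β at 10 ng/mL. In the series without SCF it had 72.5 and 116 CPM with IL-3 alone, 351 CPM with 1 ng/mL TGF-β and 467 CPM with 10 ng/mL TGF-β. Every library with 10 ng/mL TGF-β, and the library with 1 ng/mL TGF-β alone, lay above every library without TGF-β, while SCF plus TGF-β at 1 ng/mL overlapped IL-3 alone. In order of group means Id3 was highest with 10 ng/mL TGF-β alone, then with 1 ng/mL TGF-β alone, SCF plus TGF-β at 10 ng/mL (248 ± 114 CPM), IL-3 alone (94.2 ± 30.6 CPM), SCF plus TGF-β at 1 ng/mL (66.6 ± 27.5 CPM) and SCF (39.2 ± 8.73 CPM; SD, n = 2 each where an SD is given). Of these neighbours, only IL-3 alone and SCF plus TGF-β at 1 ng/mL had overlapping libraries.

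**Figure D1:**
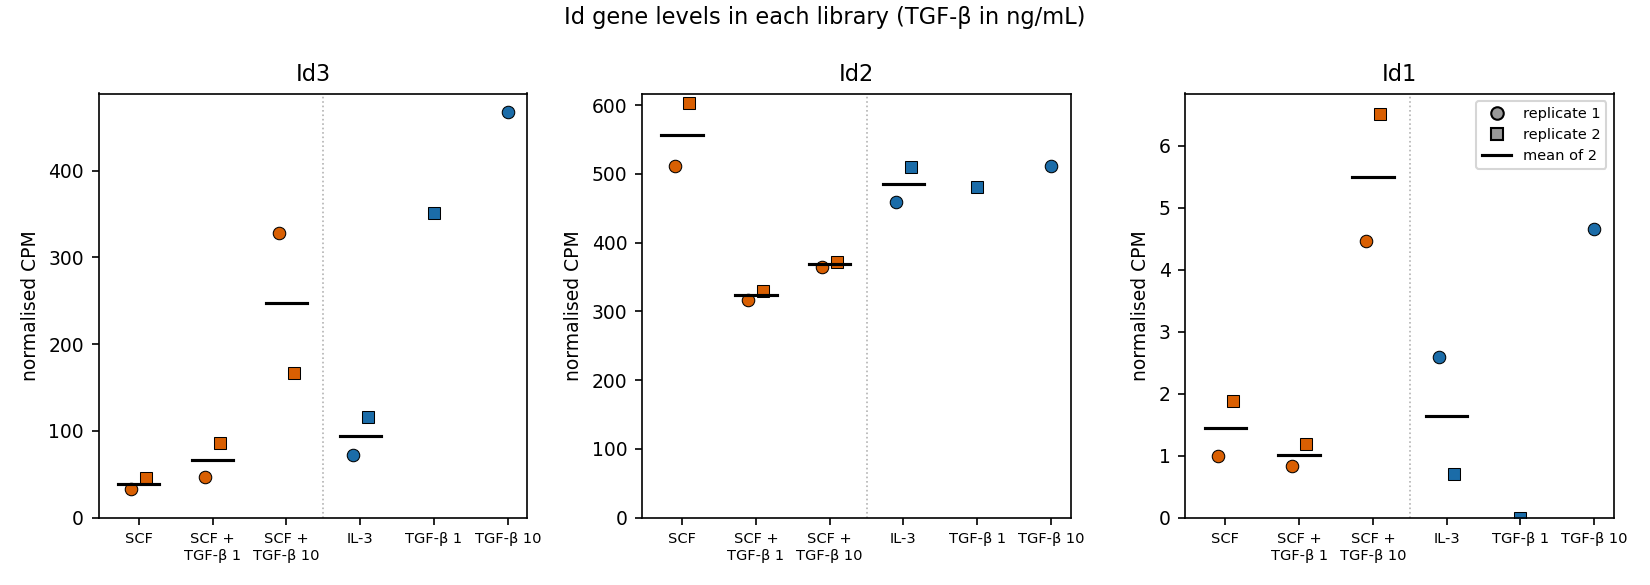
Normalised CPM (vertical axis, from 0) of Id3, Id2 and Id1 in each of the 10 libraries by group; points are libraries, their shape gives the replicate, and lines are means of 2. Id3 spans 33.0 to 467 CPM, Id2 stays between 317 and 603 CPM, and Id1 lies near 0, with at most 12 counts in a library.

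Id2 had the narrowest range of the 3 relative to its level. It had 512 and 603 CPM with SCF, 317 and 329 CPM with SCF plus TGF-β at 1 ng/mL, and 365 and 372 CPM with SCF plus TGF-β at 10 ng/mL. It had 460 and 510 CPM with IL-3 alone, 481 CPM with 1 ng/mL TGF-β and 512 CPM with 10 ng/mL TGF-β. All 4 libraries that received SCF together with TGF-β lay below all 6 others. Per group, Id2 averaged 557 ± 64.3 CPM in SCF, 323 ± 8.71 CPM in SCF plus TGF-β at 1 ng/mL and 368 ± 5.16 CPM in SCF plus TGF-β at 10 ng/mL, with 485 ± 35.7 CPM in IL-3 alone (SD, n = 2 each). The libraries of SCF and of 10 ng/mL TGF-β alone overlapped, as did those of IL-3 alone and 1 ng/mL TGF-β alone.

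Id1 was near the limit of detection. It had 2 and 3 counts with SCF, 2 and 2 counts with SCF plus TGF-β at 1 ng/mL, and 10 and 12 counts with SCF plus TGF-β at 10 ng/mL. It had 5 and 1 counts with IL-3 alone, 0 counts with 1 ng/mL TGF-β and 6 counts with 10 ng/mL TGF-β. The 3 libraries with 10 ng/mL TGF-β held the highest counts, and 5 of the other 7 libraries had 2 counts or fewer.

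The first comparison asked what TGF-β did in cells without added SCF. Id3 rose at both doses, while Id2 lay close to its level in IL-3 alone. Id3 was 3.77-fold higher with 1 ng/mL TGF-β than with IL-3 alone (log2 fold change 1.92 ± 0.34, approximate SE) and 5.02-fold higher with 10 ng/mL TGF-β (2.33 ± 0.34), with edgeR quasi-likelihood adjusted p = 0.00634 and 0.000937. These calls stand against a background of 1.28% of tested genes called at 1 ng/mL (0.676% higher, 0.605% lower) and 2.21% at 10 ng/mL (0.898% higher, 1.32% lower), and Id3 ranked 59 and 30 of 11247 genes by p. With the mean of both doses Id3 was 4.35-fold higher (2.12 ± 0.30, adjusted p = 0.000369), against 3.48% of genes called (1.36% higher, 2.12% lower). Each dose had 1 library, so its spread was assumed to be that of the other groups, and the 2 doses share the IL-3 libraries. No alternative could leave out that library in the comparison of its own dose with IL-3 alone. The call at 1 ng/mL was lost without IL-3 replicate 1 (log2 fold change 1.58, adjusted p = 0.152) and with DESeq2 (1.89, adjusted p = 0.213; range over all alternatives 1.12e-17 to 0.213), and the calls at 10 ng/mL and for the mean of both doses were kept under every alternative run.

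Id2 differed from IL-3 alone by -0.01 ± 0.17 at 1 ng/mL and by 0.08 ± 0.16 at 10 ng/mL on the log2 scale, and neither difference passed the test (edgeR adjusted p = 0.988 and 0.884). Id1, with 6 counts at 10 ng/mL TGF-β against 6 counts over both IL-3 libraries, had a pooled count ratio of 2.61 (95% counting interval 0.697 to 9.75). At 1 ng/mL its 0 counts against 6 allow a ratio up to 2.42. These intervals include no change and large changes alike.

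The second comparison asked what TGF-β did in cells that also received SCF. Here Id3 rose at 10 ng/mL, and Id2 fell at both doses. Id3 was 6.40-fold higher in SCF plus TGF-β at 10 ng/mL than in SCF (log2 fold change 2.68 ± 0.32, edgeR adjusted p = 3.72e-05), against 8.37% of genes called (3.78% higher, 4.59% lower), and ranked 66 of 11247. At 1 ng/mL it was 1.68-fold higher (0.75 ± 0.35), which missed the threshold at an adjusted p of 0.292 (unadjusted p = 0.0449), against 4.64% called (1.89% higher, 2.75% lower). That difference passed with no filter on low counts (0.77, adjusted p = 0.00864; range over alternatives 0.00864 to 0.921). Leaving out libraries moved the 10 ng/mL value between 2.10 and 3.08 and the 1 ng/mL value between 0.28 and 1.16, the extremes of the first without SCF plus TGF-β at 10 ng/mL replicates 1 and 2 and of the second without SCF plus TGF-β at 1 ng/mL replicate 2 and replicate 1.

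Id2 fell to 323 CPM in SCF plus TGF-β at 1 ng/mL, against 557 CPM in SCF (log2 fold change -0.78 ± 0.13, edgeR adjusted p = 0.00174, 1.72-fold lower). It fell to 368 CPM in SCF plus TGF-β at 10 ng/mL (-0.60 ± 0.13, adjusted p = 0.00876, 1.51-fold lower). The 1 ng/mL call was kept under every alternative run. The 10 ng/mL call was lost without SCF replicate 2 (adjusted p = 0.0982) and without SCF plus TGF-β at 10 ng/mL replicate 1 (0.0875) or replicate 2 (0.0614), with values from -0.71 to -0.48 and adjusted p from 0.000367 to 0.0982 over all alternatives. The summed mast cell markers were also lower here, at 54866 to 62755 CPM in SCF, 37626 to 44130.2 CPM with TGF-β added at 1 ng/mL and 35850.2 to 38927 CPM at 10 ng/mL. Of the 7 markers 3 were called lower at 1 ng/mL and 4 at 10 ng/mL, against 4.64% and 8.37% of all tested genes called. Most of the drop in the sum came from Cpa3 (group means 25131, 12565 and 10351 CPM) and Fcer1a (10584, 6722 and 5751 CPM). Kit and Hdc were lower too. Tpsb2 (16667, 16283 and 15930 CPM) and Ms4a2 (1507, 1445 and 1414 CPM) changed little. Group means of Gata2 rose, at 546, 627 and 718 CPM. Without SCF the sum was 41093.6 CPM with IL-3 alone, 34805.5 CPM with 1 ng/mL and 33122.5 CPM with 10 ng/mL TGF-β. There Id2 had 485, 481 and 512 CPM. The endothelial list was higher with TGF-β added to SCF, at 446 to 480.1 CPM in SCF, 654 to 664 CPM at 1 ng/mL and 692 to 751 CPM at 10 ng/mL. Of its 2 tested members 1 was called higher at 1 ng/mL and 2 at 10 ng/mL. The part of either list in the Id2 and Id3 values was not tested.

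Id1 counts in SCF plus TGF-β at 10 ng/mL were 22 over both libraries, against 5 in SCF, a pooled ratio of 3.87 (95% counting interval 1.43 to 13.1). Id1 passed the filter on low counts through this same group, so the ratio is a description and no independent support. Its interval covers counting error only, and replicates differed by more than that. The edgeR test across all genes did not call Id1 in this comparison (unadjusted p = 0.0257, adjusted p = 0.168), nor in any other run here. In SCF plus TGF-β at 1 ng/mL there were 4 counts against 5 in SCF (ratio 0.706, interval 0.140 to 3.28).

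**Figure D2:**
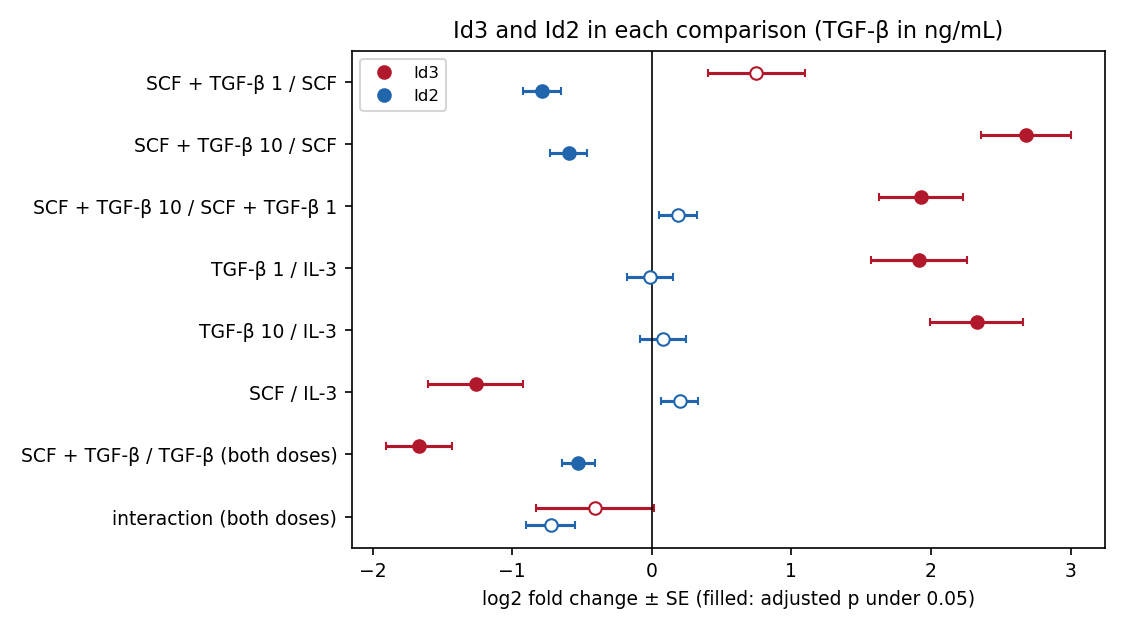
Log2 fold changes of Id3 and Id2 (horizontal axis) in each comparison (vertical axis), with bars of 1 approximate SE; filled and open symbols mark whether the adjusted p was under 0.05. Id3 lies right of 0 in the comparisons of TGF-β with its control and left of 0 in the comparisons of SCF with its control. Id2 lies left of 0 where SCF plus TGF-β is compared with SCF or with TGF-β alone. Between the doses with SCF, Id2 lies right of 0 (0.19).

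The third comparison set the 2 doses of TGF-β against each other in cells with SCF. Only 2 of 11247 genes were called, 0.0178% (0.00889% in each direction). They were Id3, which was higher at 10 ng/mL than at 1 ng/mL (log2 fold change 1.93 ± 0.30, 3.81-fold, edgeR adjusted p = 0.0349), and Gzmb, a granzyme of cytotoxic granules, which was lower (-1.54 ± 0.23, adjusted p = 0.0349) and is named because so few genes passed. At an unadjusted p under 0.05 there were 313 genes. Id2 differed by 0.19 ± 0.13 (edgeR unadjusted p = 0.179). Id1 had 22 counts at 10 ng/mL against 4 at 1 ng/mL, a ratio of 5.47 (interval 1.86 to 21.8, edgeR unadjusted p = 0.00897). The adjusted p was 0.9999 for each. The Id1 ratio again uses the group through which Id1 passed the filter, so it is no independent support.

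The Id3 dose call rested on few libraries. It was lost without SCF plus TGF-β at 10 ng/mL replicate 1 (1.36, adjusted p = 1), without SCF plus TGF-β at 1 ng/mL replicate 1 (1.52, adjusted p = 0.668), without IL-3 replicate 1 (adjusted p = 0.0858) or replicate 2 (0.0940), and with DESeq2, which called 0 genes (1.90, adjusted p = 0.9999; range over alternatives 8.57e-24 to 1). The libraries of both doses did not overlap for Id3 (167 and 328 CPM at 10 ng/mL, against 47.2 and 86.1 CPM at 1 ng/mL). Without SCF the library at 10 ng/mL was also the higher (467 CPM, against 351 CPM at 1 ng/mL), and with 1 library each that difference was not tested.

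The fourth comparison asked what SCF did, first without and then with TGF-β. Id3 was lower with SCF in both settings. Id2 was called lower with SCF in the presence of TGF-β and was not called in its absence; the difference between the settings is the interaction tested after it. Without TGF-β, Id3 was 2.39-fold lower in SCF than in IL-3 alone (log2 fold change -1.26 ± 0.34, edgeR adjusted p = 0.0283), against 9.17% of genes called (5.71% higher, 3.46% lower). Id2 was 1.15-fold higher (0.20 ± 0.13), which did not pass (adjusted p = 0.394). The Id3 call was lost without IL-3 replicate 2 (-0.90, adjusted p = 0.293), without SCF replicate 1 (-1.03, 0.155) or replicate 2 (-1.48, 0.0784), and with DESeq2 (-1.26, 0.137; range over alternatives 8.00e-08 to 0.293). Id1 had 5 counts in SCF against 6 in IL-3 alone (ratio 0.780, interval 0.188 to 3.07).

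With TGF-β present, taking the mean of both doses, Id3 was 3.17-fold lower with SCF than with TGF-β alone (-1.67 ± 0.24, edgeR adjusted p = 8.57e-05) and Id2 was 1.44-fold lower (-0.52 ± 0.12, adjusted p = 0.00313). In this comparison 24.7% of genes were called (13.3% higher, 11.4% lower), so a call by itself says little about these 2 genes. Both calls were kept under every alternative run. For Id3 the libraries of both settings did not overlap at either dose: 47.2 and 86.1 CPM with SCF against 351 CPM without at 1 ng/mL, and 328 and 167 CPM with SCF against 467 CPM without at 10 ng/mL. The treatments lacking SCF have 1 library a dose.

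Whether the response to TGF-β differed with SCF was tested as an interaction, the log2 change with SCF minus that without. Averaged over doses, 0.293% of genes were called (0.116% above 0, 0.178% below), and none of the 3 Id genes was among them. Id2 came nearest at -0.73 ± 0.18 (unadjusted p = 0.000738, edgeR adjusted p = 0.124, rank 67 of 11247). It passed with no filter on low counts (-0.71, adjusted p = 0.0417) and with the replicate number as a block (-0.72, adjusted p = 0.00947), in a range over alternatives of 0.00947 to 0.405. For Id3 the interaction was -0.41 ± 0.42 (adjusted p = 0.829). Taken by dose, a split chosen after the data were seen, it was -1.17 ± 0.49 for Id3 at 1 ng/mL (unadjusted p = 0.0306, adjusted p = 0.565) and 0.35 ± 0.48 at 10 ng/mL (adjusted p = 0.902). The value at 1 ng/mL passed with no filter on low counts (-1.12, adjusted p = 0.0431; range over alternatives 0.0431 to 0.9995), and the value at 10 ng/mL changed sign without SCF plus TGF-β at 10 ng/mL replicate 1 (-0.22) and without IL-3 replicate 2 (-0.0030). For Id2 it was -0.77 ± 0.21 at 1 ng/mL (adjusted p = 0.326) and -0.68 ± 0.21 at 10 ng/mL (adjusted p = 0.333), the second called with the block (-0.73, adjusted p = 0.0476).

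Levels of different genes were compared per kilobase of exon. Id2 made up most of the summed Id RNA in every library without TGF-β, and Id3 passed it in 2 of the 3 libraries with 10 ng/mL TGF-β. That crossing rests on the divisor, 2438 bases of exon for Id2 and 1791 for Id3. In CPM, Id3 was below Id2 in every library. It had 467 against 512 CPM with 10 ng/mL TGF-β alone. In replicate 1 of SCF plus TGF-β at 10 ng/mL it had 328 against 365 CPM. Id3 was 8.05% and 9.24% of the sum with SCF, 16.8% and 26.1% with SCF plus TGF-β at 1 ng/mL, and 54.4% and 37.1% with SCF plus TGF-β at 10 ng/mL. It was 17.5% and 23.6% with IL-3 alone, 49.8% with 1 ng/mL TGF-β and 54.9% with 10 ng/mL TGF-β. Id1 stayed at or under 2.23% of the sum in every library.

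The summed Id level followed both members. It was 229 and 274 CPM per kb with SCF, 157 and 184 CPM per kb with SCF plus TGF-β at 1 ng/mL, and 337 and 252 CPM per kb with SCF plus TGF-β at 10 ng/mL. It was 231 and 275 CPM per kb with IL-3 alone, 393 CPM per kb with 1 ng/mL TGF-β and 475 CPM per kb with 10 ng/mL TGF-β. SCF plus TGF-β at 1 ng/mL gave the lowest sums and TGF-β alone the highest, and neither overlapped another group. SCF and IL-3 alone had nearly the same sums, made up of different shares of Id3.

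**Figure D3:**
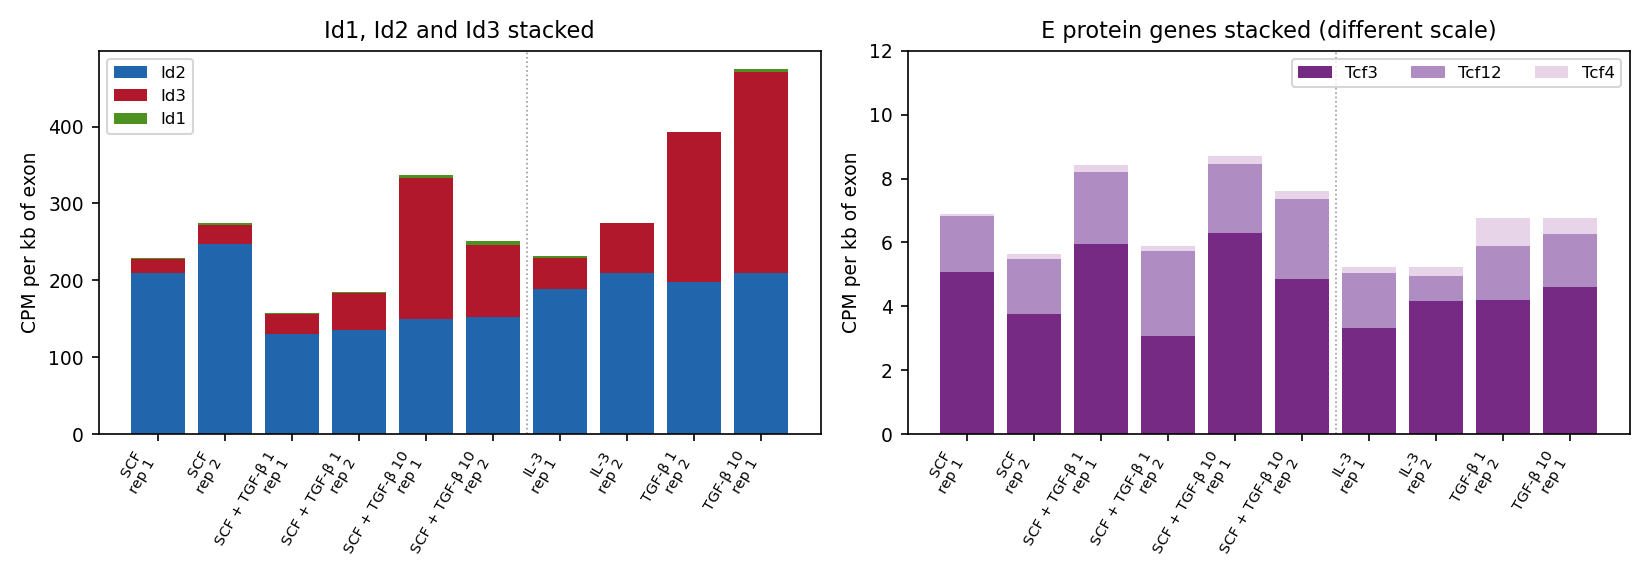
Summed exon-length-scaled level of Id1, Id2 and Id3 (CPM per kb) in each library, stacked by gene. The sum is lowest in SCF plus TGF-β at 1 ng/mL (157 and 184 CPM per kb) and highest in 10 ng/mL TGF-β alone (475 CPM per kb), and the Id3 layer takes 37.1% to 54.9% of the sum in the libraries with 10 ng/mL TGF-β. The second panel shows the E protein genes on a smaller scale, with sums of 5.23 to 8.69 CPM per kb.

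The E protein genes, whose products the Id proteins bind, lay far below the Id genes per kilobase of exon and varied little in sum. Tcf3 (E2A), Tcf4 (E2-2) and Tcf12 (HEB) together gave 5.23 to 8.69 CPM per kb over the 10 libraries, and Tcf3 was the largest part in 10 of 10. That order rests on the divisor, all annotated exons of a gene joined: 4039 bases for Tcf3, 15529 for Tcf12 and 27382 for Tcf4. In CPM, Tcf12 had a higher mean than Tcf3 in every group, such as 19.2 against 15.2 with IL-3 alone. With SCF plus TGF-β at 1 ng/mL it was 38.2 against 18.2 CPM. IL-3 replicate 2 went the other way (11.9 against 16.8 CPM). The ratio of summed Id to summed E protein RNA was 33.3 and 48.7 with SCF, 18.7 and 31.2 with SCF plus TGF-β at 1 ng/mL, and 38.7 and 33.0 with SCF plus TGF-β at 10 ng/mL. It was 44.2 and 52.3 with IL-3 alone, 58.2 with 1 ng/mL TGF-β and 70.3 with 10 ng/mL TGF-β. These are ratios of RNA, not of protein, and their size depends on the exon lengths used. In CPM, without that scaling, the sums were 365 to 984 for the Id genes and 37.2 to 67.0 for the E protein genes.

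None of the 3 E protein genes was called for TGF-β or SCF against its control at either dose. Of all tested genes 1.28% and 2.21% were called at 1 and 10 ng/mL TGF-β alone. The shares were 4.64% and 8.37% at those doses with SCF, and 9.17% for SCF against IL-3 alone. With 3 genes, 0 calls is near those shares. Tcf4 was lower in SCF plus TGF-β than in TGF-β alone (log2 fold change -1.59 ± 0.38, edgeR adjusted p = 0.00578). It had 5.47, 4.75, 6.26 and 7.06 CPM in the 4 libraries with SCF and TGF-β, against 23.8 CPM with 1 ng/mL and 13.2 CPM with 10 ng/mL TGF-β alone. That call was lost without the library of 1 ng/mL TGF-β alone (-1.17, adjusted p = 0.164) and with DESeq2 (adjusted p = 0.0690).

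The promoters of Id2 and Id3 were read from RefSeq (GRCm38.p6), 250 bases before to 50 after the annotated start, and 4 motifs were searched on both strands. They were CAGAC or its reverse complement GTCTG (the box that SMAD3 and SMAD4 bind), GGCGCC (a GC-rich SMAD motif), CANNTG (the E-box that E proteins bind) and TTCNNNGAA (the STAT motif). The matches are shown so that both promoters can be set beside the Id3 and Id2 levels above, with the motif in capitals and the sequence on the strand of the gene.
Id3, chr4:136143642-136143671, plus strand: ctgtcctcggcgtCAGACcagcctaaggaa
Id3, chr4:136143741-136143770, plus strand: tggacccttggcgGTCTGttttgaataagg
Id2, chr12:25096306-25096335, minus strand: tcaggccccctgGGCGCCcagcgcacactg
Id2, chr12:25096271-25096300, minus strand: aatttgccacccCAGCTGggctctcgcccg
The Id3 promoter window held 2 CAGAC boxes, starting 167 and 68 bases before the start, which fall in a non-coding exon of another annotated Id3 transcript. The Id2 window held 1 GGCGCC at 231 bases and 1 E-box at 196 bases before the start, inside an intron of another Id2 transcript, and no CAGAC box. Neither window held TTCNNNGAA. Of 32851 promoter windows of that length, 49.6% held CAGAC, 11.9% GGCGCC, 72.3% an E-box and 8.30% TTCNNNGAA, so each of these motifs is common. A match describes the letters of the window and shows no binding.

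Genes of the TGF-β branch were described beside the Id genes. Of 19 listed receptors, SMADs, feedback inhibitors and targets, 14 were tested, and the same 3 were higher in every comparison of TGF-β with its control: Skil and Smad7, which hold back SMAD signalling, and Ldlrad4, which also restrains the pathway. Of all tested genes 0.676% and 0.898% were called higher at 1 and 10 ng/mL TGF-β alone, and 1.89% and 3.78% at those doses with SCF. Skil had 6.51 and 6.93 CPM with SCF, 65.7 and 79.5 CPM with SCF plus TGF-β at 1 ng/mL, and 107 and 105 CPM with SCF plus TGF-β at 10 ng/mL. It had 11.9 and 15.4 CPM with IL-3 alone, 102 CPM with 1 ng/mL TGF-β and 128 CPM with 10 ng/mL TGF-β. At 1 ng/mL with SCF, where the Id3 difference did not pass, Skil was higher by 3.42 ± 0.25 on the log2 scale (edgeR adjusted p = 4.28e-07).

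The log2 change of Skil against its control was 2.91 ± 0.26 at 1 ng/mL alone, 3.24 ± 0.25 at 10 ng/mL alone and 3.97 ± 0.24 at 10 ng/mL with SCF. Its calls were kept under every alternative run. For a single dose of TGF-β alone, none of these could leave out its only library. Ldlrad4 was higher by 3.44 ± 0.55 at 1 ng/mL alone, 2.84 ± 0.59 at 10 ng/mL alone, 3.67 ± 0.63 at 1 ng/mL with SCF and 4.56 ± 0.57 at 10 ng/mL with SCF, the last 3.96 without replicate 1 of SCF plus TGF-β at 10 ng/mL. Both its calls without SCF were lost without IL-3 replicate 1 (2.85, adjusted p = 0.0723, at 1 ng/mL, and 2.28, adjusted p = 0.117, at 10 ng/mL). Smad7 was higher by 2.70 ± 0.50, 3.29 ± 0.46, 1.79 ± 0.45 and 2.87 ± 0.40 in the same order. Its call at 1 ng/mL alone was lost without IL-3 replicate 1 (2.24, adjusted p = 0.134). At 1 ng/mL with SCF (adjusted p = 0.0265) it was lost with DESeq2 (0.165), without SCF replicate 1 (0.262) or 2 (0.0516) and without SCF plus TGF-β at 1 ng/mL replicate 1 (0.108) or 2 (0.0772).

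Against these 3, the receptor gene Tgfbr2 was lower with 10 ng/mL TGF-β alone (-1.02 ± 0.20, edgeR adjusted p = 0.00926), a call lost without IL-3 replicate 2 (adjusted p = 0.0579), and the receptor gene Tgfbr1 was lower with 10 ng/mL TGF-β and SCF (-0.50 ± 0.15, adjusted p = 0.0477), a call lost under 9 of 14 alternatives, with adjusted p up to 0.259. The median log2 change of the 14 tested genes was 0.36, 0.17, 0.44 and 0.27 in the 4 comparisons of 1 and 10 ng/mL TGF-β without and with SCF, against -0.01, -0.01, 0.01 and -0.0005 over all tested genes. With the mean of both doses against IL-3 alone, the called members outside the Id genes and the mast cell markers were Skil (3.08 ± 0.22), Smad7 (2.99 ± 0.42) and Ldlrad4 (3.14 ± 0.49), which were higher, and Bmp7 (-0.64 ± 0.16), Tgfbr2 (-0.65 ± 0.15), Spi1 (-1.20 ± 0.27) and Cdkn1a (-0.70 ± 0.13), which were lower. Of the 7 mast cell markers 1 was higher and 3 were lower there. Of all tested genes 3.48% were called in that comparison (1.36% higher, 2.12% lower). The calls of Bmp7, Tgfbr2, Spi1 and Cdkn1a were lost without the library of 10 ng/mL TGF-β alone, at adjusted p of 0.424, 0.599, 0.368 and 0.0907. Those of Bmp7 and Tgfbr2 were also lost without IL-3 replicate 2 (0.164 and 0.159) and with DESeq2 (0.127 and 0.0523), and those of Bmp7 and Spi1 without IL-3 replicate 1 (0.0585 and 0.146).

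**Figure D4:**
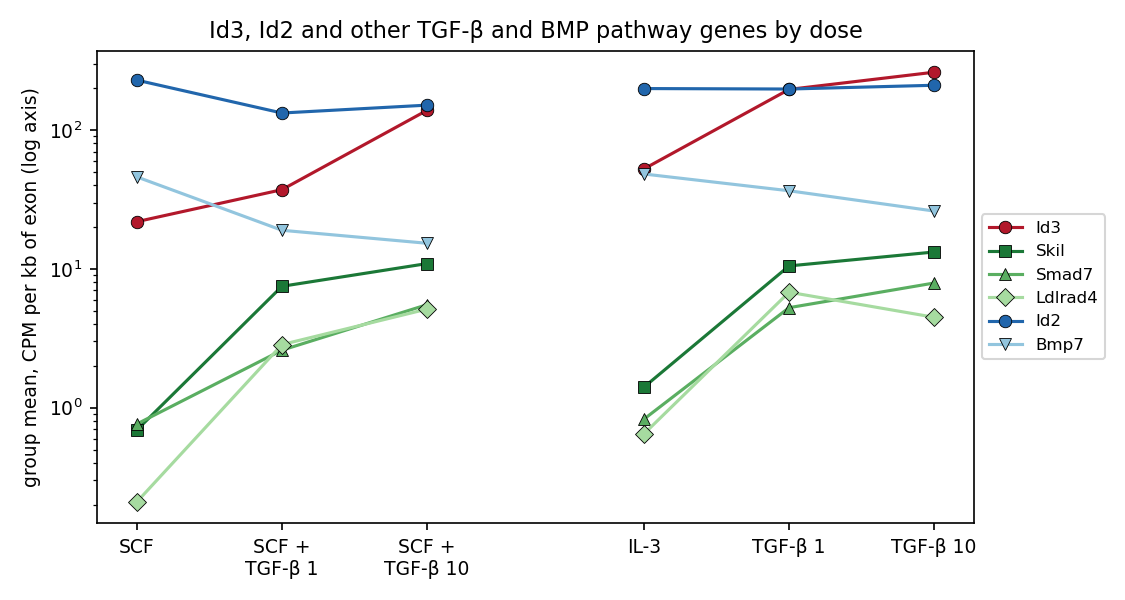
Group means, in CPM per kb of exon on a log axis, of Id3, Id2 and genes of the TGF-β and BMP branches across the 2 treatment series. Skil is higher in all 4 groups with TGF-β than in the control of its series, while Id3 averages 37.2 CPM per kb with SCF plus TGF-β at 1 ng/mL, against 21.9 CPM per kb with SCF.

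The BMP branch, the classical route to Id1 and Id3, was mostly at low levels. Of 18 listed genes 8 were tested. The ligand genes Bmp2, Bmp4 and Bmp6 had 12, 1 and 2 counts over all 10 libraries, and Smad6, a feedback inhibitor that BMP signals induce, had 3. Bmp7 was the abundant ligand gene of the list. It had 189 and 180 CPM with SCF, 84.2 and 68.3 CPM with SCF plus TGF-β at 1 ng/mL, and 62.1 and 60.8 CPM with SCF plus TGF-β at 10 ng/mL. It had 180 and 208 CPM with IL-3 alone, 147 CPM with 1 ng/mL TGF-β and 105 CPM with 10 ng/mL TGF-β.

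Every library with TGF-β was below every library without it for Bmp7. With SCF, Bmp7 fell by 1.27 ± 0.16 at 1 ng/mL and by 1.58 ± 0.16 at 10 ng/mL on the log2 scale (edgeR adjusted p = 9.57e-05 and 7.20e-06), and both calls were kept under every alternative run. At 10 ng/mL without SCF it fell by 0.88 ± 0.20 (adjusted p = 0.0287), a call lost without IL-3 replicate 2 (adjusted p = 0.129) and with DESeq2 (0.0687). Of the intracellular members, Smad5, which carries BMP signals, was lower in SCF plus TGF-β than in TGF-β alone (-1.03 ± 0.23, adjusted p = 0.00415), and this was lost without the library of 10 ng/mL TGF-β alone (-0.92, adjusted p = 0.0526).

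In that last comparison, of SCF plus TGF-β against TGF-β alone, 4 BMP branch genes were lower and 0 higher, against 24.7% of all tested genes called (13.3% higher, 11.4% lower), with a median log2 change of -0.82 over the 8 tested. The others were Bmp7 (-0.85 ± 0.14, edgeR adjusted p = 0.000397), the receptor gene Bmpr2 (-0.56 ± 0.19, adjusted p = 0.0447, lost under 9 of 14 alternatives, -0.35 and adjusted p = 0.412 without the library of 1 ng/mL TGF-β alone) and Bambi, a decoy receptor gene (-2.05 ± 0.64, adjusted p = 0.0257). Bambi had 15 counts over the 4 libraries with SCF against 19 over the 2 without, and its call was lost without the library of 1 ng/mL TGF-β alone (adjusted p = 0.255) and by small margins without either library of SCF plus TGF-β at 1 ng/mL (0.0517 and 0.0520) or without SCF plus TGF-β at 10 ng/mL replicate 1 (0.0529). In SCF against IL-3 alone, Eng, a co-receptor gene, was higher (1.80 ± 0.45, adjusted p = 0.0187). That was lost without IL-3 replicate 1 (0.111) or 2 (0.104) and without SCF replicate 2 (0.134).

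In that comparison of SCF plus TGF-β against TGF-β alone, Tgfb1, the TGF-β ligand gene, was higher (1.32 ± 0.37, edgeR adjusted p = 0.0159), and this was lost without the library of 1 ng/mL (0.0515) or of 10 ng/mL TGF-β alone (0.160) and with DESeq2 (0.0538).

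Transcription factors known elsewhere as regulators of Id genes were also measured, 12 of 13 of them tested. In SCF against IL-3 alone 1 was higher and 4 were lower, against 9.17% of all tested genes called (5.71% higher, 3.46% lower). Etv5, an ETS factor, had 40.5 and 51.1 CPM in SCF against 9.85 and 7.02 CPM in IL-3 alone (log2 fold change 2.40 ± 0.28, edgeR adjusted p = 7.66e-05). Stat3 had 134 and 118 CPM in SCF against 234 and 228 CPM in IL-3 alone (-0.88 ± 0.15, adjusted p = 0.00172). Both calls were kept under every alternative run.

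Stat5a and Stat5b, whose products carry the IL-3 signal, were lower by 0.79 ± 0.18 and 0.71 ± 0.18 on the log2 scale in SCF (edgeR adjusted p = 0.0111 and 0.0220). The Stat5a call was lost without IL-3 replicate 2 (0.158), SCF replicate 1 (0.0512) or SCF replicate 2 (0.0784), and the Stat5b call without IL-3 replicate 2 (0.172) or SCF replicate 2 (0.191) and with DESeq2 (0.0878). In SCF plus TGF-β against TGF-β alone, 2 were higher and 5 lower, against 24.7% of all tested genes called (13.3% higher, 11.4% lower). Among them Etv5 (2.62 ± 0.33), Spi1 (1.55 ± 0.24), Stat3 (-1.23 ± 0.13) and Stat5a (-1.03 ± 0.16) kept their calls under every alternative run. Their adjusted p ran from 6.52e-06 to 0.000173, and Etv5 lay between 1.90 without the library of 10 ng/mL and 3.33 without that of 1 ng/mL TGF-β alone.

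Spi1, the gene of the myeloid factor PU.1, was lower with 10 ng/mL TGF-β alone (-1.67 ± 0.36, edgeR adjusted p = 0.0199), at 24.1 CPM against 82.4 and 70.9 CPM in IL-3 alone. That was lost without IL-3 replicate 1 (0.0849) or 2 (0.0532). No regulator on the list was called for TGF-β added to SCF. The share of all tested genes called there was 4.64% for the lower dose and 8.37% for the higher dose. With 12 regulators tested, 0 calls is near those shares. In these comparisons Id2 was called lower for both doses, and Id3 was called higher for the higher dose only.

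Other helix-loop-helix genes were less often at a measurable level: of 13 tissue-restricted class genes 3 were tested and 7 had no count. Twist2 had 4.00 and 8.19 CPM with SCF, 31.2 and 14.2 CPM with SCF plus TGF-β at 1 ng/mL, and 62.1 and 18.5 CPM with SCF plus TGF-β at 10 ng/mL. At 10 ng/mL it was higher than in SCF (2.78 ± 0.54, edgeR adjusted p = 0.00314), a call lost without SCF replicate 1 (2.32, adjusted p = 0.0622) or SCF plus TGF-β at 10 ng/mL replicate 1 (1.63, adjusted p = 0.113), and the value was 3.38 without replicate 2 of that group. As with Id3, the first of the 2 libraries at 10 ng/mL was the higher. Tal1, a blood lineage partner of E proteins, was lower in SCF plus TGF-β than in TGF-β alone (-0.68 ± 0.16, adjusted p = 0.00466), and this was kept under every alternative run.

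Of 8 genes of the Hes and Bhlhe families, which carry their own repressor function, 4 were tested. Bhlhe40 was lower in SCF than in IL-3 alone (-0.79 ± 0.14, edgeR adjusted p = 0.00202), a call lost without IL-3 replicate 2 (0.0531). In SCF plus TGF-β against TGF-β alone, Hes1 was higher (2.07 ± 0.48, adjusted p = 0.00460), Bhlhe40 lower (-0.48 ± 0.12, adjusted p = 0.00719) and Hey2 lower, with 4 counts in 4 libraries against 13 in 2 (ratio 0.0932, 95% counting interval 0.0221 to 0.302; adjusted p = 0.0301). The Hes1 call was lost without the library of 10 ng/mL TGF-β alone (0.0570), the Bhlhe40 call without that of 1 ng/mL (0.189), and the Hey2 call without SCF plus TGF-β at 1 ng/mL replicate 1 (0.0645) or SCF plus TGF-β at 10 ng/mL replicate 2 (0.0652).

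The leucine-zipper group, which includes Myc and the mast cell factor gene Mitf and does not depend on E proteins, had 15 of 17 genes tested. None was called for TGF-β against its control. Of all tested genes 1.28% and 2.21% were called there at 1 and 10 ng/mL TGF-β alone, and 4.64% and 8.37% at those doses with SCF. In SCF against IL-3 alone 2 were higher and 1 lower, where 9.17% of all tested genes were called (5.71% higher, 3.46% lower). These were Mxd3, of the Myc network (1.15 ± 0.25, edgeR adjusted p = 0.00837), Srebf1, a regulator of lipid synthesis (0.69 ± 0.16, adjusted p = 0.0120), and Mitf (-0.61 ± 0.18, adjusted p = 0.0403). Mxd3 was lost without IL-3 replicate 1 (0.0846) or SCF replicate 2 (0.108), Srebf1 without IL-3 replicate 2 (0.122) or SCF replicate 1 (0.0737), and Mitf under 8 of 14 alternatives, with adjusted p up to 0.225. In SCF plus TGF-β against TGF-β alone 4 were higher and 2 lower, against 24.7% of all tested genes called (13.3% higher, 11.4% lower). Mxd3 (1.80 ± 0.24), Myc (1.02 ± 0.16), Srebf1 (0.79 ± 0.14) and Srebf2 (0.71 ± 0.15) were higher, with adjusted p from 5.95e-05 to 0.00251, and kept their calls under every alternative run.

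Cell cycle inhibitor genes were included because E proteins are known to activate Cdkn1a, and 5 of 7 were tested. Cdkn1a had 458 and 460.3 CPM with IL-3 alone, 300.4 CPM with 1 ng/mL and 265 CPM with 10 ng/mL TGF-β. It was lower at 10 ng/mL (-0.79 ± 0.17, edgeR adjusted p = 0.0174), which was lost without IL-3 replicate 2 (0.0625). No member was called for TGF-β added to SCF, against 4.64% of all tested genes called at 1 ng/mL and 8.37% at 10 ng/mL. In SCF plus TGF-β against TGF-β alone, Cdkn1a was higher (0.63 ± 0.12, adjusted p = 0.000937) and Cdkn1b lower (-1.72 ± 0.33, adjusted p = 0.00127), both under every alternative run. Cdkn2d (0.98 ± 0.25, adjusted p = 0.00863) was higher too, a call lost without the library of 1 ng/mL TGF-β alone (0.119), as was Cdkn2b (1.81 ± 0.64, adjusted p = 0.0485), whose call was lost under 9 of 14 alternatives (0.50, adjusted p = 0.645, without the library of 10 ng/mL TGF-β alone, and 3.11, adjusted p = 0.0530, without that of 1 ng/mL).

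Id genes respond quickly to serum and stress in many cells, so the immediate-early genes were set beside them, 16 of 18 tested. Id2 was higher in replicate 2 of all 4 replicated groups. Of 17 immediate-early genes with counts, 12 were higher in replicate 1 of all 4, 3 in 3 of 4, and 2 in fewer than 3. The share of all tested genes with such an order is not given here, and no label says what a replicate number marks. Id3 was higher in replicate 2 with IL-3 alone, with SCF and with SCF plus TGF-β at 1 ng/mL, but higher in replicate 1 with SCF plus TGF-β at 10 ng/mL. The summed immediate-early level was 3166 to 5141 CPM with SCF, 3088 to 4612 CPM with SCF plus TGF-β at 1 ng/mL and 3270.4 to 5417 CPM with SCF plus TGF-β at 10 ng/mL, and the groups overlapped. Its part in the Id values was not tested.

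With TGF-β added to SCF, 3 immediate-early genes were lower at 1 ng/mL and 2 at 10 ng/mL, and 0 were higher. Of all tested genes 2.75% were called lower at 1 ng/mL and 4.59% at 10 ng/mL (4.64% and 8.37% in either direction). Dusp1, a phosphatase gene, was lower by 1.72 ± 0.30 and 1.51 ± 0.29 on the log2 scale (edgeR adjusted p = 0.00185 and 0.00270), and both calls were lost without SCF replicate 1 (0.0530 and 0.0727). Zfp36, which speeds mRNA decay, was lower by 1.99 ± 0.45 and 2.06 ± 0.46 (adjusted p = 0.0149 and 0.00832), and both calls were lost without SCF replicate 1 (0.352 and 0.247), the first also without SCF plus TGF-β at 1 ng/mL replicate 2 (0.124) and the second without SCF plus TGF-β at 10 ng/mL replicate 1 (0.109). Btg2, an antiproliferative gene, was lower at 1 ng/mL (-2.05 ± 0.48, adjusted p = 0.0173), which was lost without SCF replicate 1 (0.334) or SCF plus TGF-β at 1 ng/mL replicate 2 (0.132) and with DESeq2 (0.193).

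Jun was higher with 10 ng/mL TGF-β alone than with IL-3 alone (1.21 ± 0.30, edgeR adjusted p = 0.0419), which was lost without IL-3 replicate 2 (0.280) and with DESeq2 (0.298). In SCF plus TGF-β against TGF-β alone 1 immediate-early gene was higher and 4 lower, against 24.7% of all tested genes called (13.3% higher, 11.4% lower), so the count is near that share. Btg2 (-2.95 ± 0.36, adjusted p = 2.03e-05) and Zfp36 (-2.10 ± 0.40, adjusted p = 0.00109) were lower under every alternative run. Junb (-0.92 ± 0.25, adjusted p = 0.0118) was lost without the library of 10 ng/mL TGF-β alone (0.0823) and with DESeq2 (0.196). Ier3 (-0.45 ± 0.13, adjusted p = 0.0154) was lost without the library of 1 ng/mL (0.0505) or 10 ng/mL TGF-β alone (0.112) and without SCF plus TGF-β at 1 ng/mL replicate 2 (0.0698) or SCF plus TGF-β at 10 ng/mL replicate 2 (0.0629).

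Genes whose pattern over the 10 libraries was most like that of each Id gene were found by the root mean square difference of centred log2 CPM, among 6121 genes whose mean level was 20 CPM or more. For Id3 these were Dhrs3, a retinal reductase gene (0.62), Ikzf4, of the Ikaros zinc finger family (0.72), Fat3, a protocadherin gene (0.74), and Ypel3 (0.76), against a median of 1.32 over all candidates. Dhrs3 had 16.0 and 11.3 CPM with SCF, 51.4 and 39.8 CPM with SCF plus TGF-β at 1 ng/mL, and 78.2 and 51.6 CPM with SCF plus TGF-β at 10 ng/mL. It had 25.9 and 33.0 CPM with IL-3 alone, 120 CPM with 1 ng/mL TGF-β and 115 CPM with 10 ng/mL TGF-β. Dhrs3 shared with Id3 the high libraries with TGF-β alone and the low libraries with SCF, and at 1 ng/mL with SCF both its libraries lay above IL-3 alone, where those of Id3 did not.

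For Id2 the nearest were Lgals3bp (0.12), Asrgl1 (0.13), Sqstm1, an autophagy receptor gene (0.14), and Erap1, a peptide-trimming gene (0.15), against a median of 0.40. Lgals3bp had 170 and 194 CPM with SCF, 112 and 116 CPM with SCF plus TGF-β at 1 ng/mL, and 115 and 122 CPM with SCF plus TGF-β at 10 ng/mL. For Id1 they were Haus8 (0.57), Dpy30 (0.58), Lrrc40 (0.58) and Tab1 (0.58) against a median of 0.87, and with so few Id1 counts the order says little. The root mean square spread of Id3 itself was 1.27 on the log2 scale, rank 127 of 11247 tested genes, against 0.30 and rank 6983 for Id2 and 0.83 and rank 841 for Id1.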

How the data were processed

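Per the labels' protocols, BMMCs were lysed in TCL buffer, RNA was bound to SPRI beads, and SmartSeq2 cDNA went through Nextera XT to a NextSeq500 (2 x 38 bases). The submitters' processing notes name STAR, HTSeq, DESeq2 and GRCm38 (mm10). Neither versions nor an annotation release are given in the sources used here. The authors deposited read counts for 49671 genes. A further 5 entries name no gene and were left out: reads not unique (37.2% to 55.6% a library), without feature (26.0% to 33.6%) or ambiguous (2.04% to 2.85%), while 16.4% to 26.6% fell in genes.

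The analysis used edgeR 4.0.16 in R 4.3.3: TMM scaling, filterByExpr and quasi-likelihood F tests, with 6 group means over 10 libraries, 4 residual degrees of freedom and a biological coefficient of variation of 0.126. Calls needed a Benjamini-Hochberg adjusted p below 0.05 over all 11247 tested genes in each of 9 contrasts, and the script was tested on simulated data. An SE is the log2 fold change divided by the square root of F. Levels are TMM-normalised CPM, divided by union exon kilobases (GENCODE vM21) to compare genes. Alternatives were DESeq2 1.42.0, its size factors, no filter, a replicate block and each library left out. Named are the Id genes, up to 4 called members of a list per contrast, and the 4 genes most like each Id gene. Members and lists were chosen with earlier results of these data known. Replicates differed by more than counting error (chi-square per gene 3.30 to 4.24).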

Additional observations from a re-analysis of the deposited data

Results flagged for a closer look

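Among the listed pathway, regulator, helix-loop-helix, immediate-early and cell cycle genes set beside Id1, Id2 and Id3, 2 were called by the interaction test (edgeR quasi-likelihood, adjusted over all tested genes). Their response to TGF-β differed with SCF. Of the 7 mast cell markers 1 was also called, below 0, and 0.293% of all tested genes were called. Spi1 had an interaction of 1.62 ± 0.33 (adjusted p = 0.0497): it had 87.6 and 57.4 CPM with SCF, 100.2 and 71.2 CPM with SCF plus TGF-β at 1 ng/mL, and 129 and 93.9 CPM with SCF plus TGF-β at 10 ng/mL. Without SCF it had 82.4 and 70.9 CPM with IL-3 alone, 46.7 CPM with 1 ng/mL and 24.1 CPM with 10 ng/mL TGF-β. Btg2 had an interaction of -2.67 ± 0.53 (adjusted p = 0.0409), with 2.97 to 15.2 CPM in the 4 libraries with SCF plus TGF-β, against 39.0 and 16.4 CPM with SCF. Without SCF it had 38.3 and 30.2 CPM with IL-3 alone, 50.9 CPM with 1 ng/mL and 88.6 CPM with 10 ng/mL TGF-β. The Spi1 call was lost under 9 of 14 alternatives and the Btg2 call under 7 of 13. Without the library of 10 ng/mL TGF-β alone, adjusted p was 0.344 for Spi1 (1.15) and 0.229 for Btg2 (-2.27), and over all alternatives adjusted p reached 0.344 and 0.334.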

How the results depend on the processing

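Id3 at 10 ng/mL TGF-β, Id3 for the mean of both doses, Id2 at 1 ng/mL TGF-β added to SCF, and both genes in SCF plus TGF-β against TGF-β alone kept their direction and call under every alternative run. The only library of 10 ng/mL TGF-β alone could not be left out in its own comparison with IL-3 alone. Other log2 fold changes crossed the threshold with DESeq2 for Id3, at -1.26 for SCF against IL-3, 1.89 for 1 ng/mL TGF-β alone against IL-3 and 1.90 between doses with SCF. With no filter on low counts, calls were gained at 0.77 (Id3, 1 ng/mL TGF-β added to SCF), -0.71 (Id2 interaction) and -1.12 (Id3 interaction at 1 ng/mL), and Id3 adjusted p fell as low as 3.72e-43. The cause was not tested. Adding the replicate block called the Id2 interaction (-0.72, adjusted p = 0.00947) and its value at 10 ng/mL (-0.73, adjusted p = 0.0476). Replicate numbers correlated at -0.003 to 0.022 in the 3 pairs of groups with IL-3 and at 0.197 to 0.231 in the 3 pairs among groups with SCF, and no label says what a number marks.

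Genes called by DESeq2 numbered 471 for SCF against IL-3 (edgeR 1031), 94 and 151 for 1 and 10 ng/mL TGF-β alone (144 and 249), 225 for their mean (391), 270 and 438 for 1 and 10 ng/mL added to SCF (522 and 941), 0 between doses (2) and 1518 for SCF plus TGF-β against TGF-β alone (2780). With no filter there were 311, 458 and 601 for TGF-β alone (1 ng/mL, 10 ng/mL, mean), 8 between doses and 125 for the interaction (33). With the block there were 361, 459 and 718 for TGF-β alone, 859 for 1 ng/mL added to SCF, 5 between doses and 102 for the interaction.

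Leaving out each library in turn, where some groups then held 1 library assumed to vary like the others, moved log2 fold changes as follows. Id3 lay between -1.57 and -0.90 for SCF against IL-3, 1.58 and 2.24 for 1 ng/mL TGF-β alone against IL-3, and 1.36 and 2.40 between doses. Its interaction at 10 ng/mL lay between -0.22 and 0.75. Id2 lay between -0.71 and -0.48 for 10 ng/mL added to SCF, and around 0 for TGF-β alone, at -0.11 to 0.031 for 1 ng/mL and -0.048 to 0.092 for the mean. The Id1 values, on few counts, changed sign in 4 comparisons, with ranges of -0.86 to 0.93 (SCF against IL-3), -4.73 to 1.37 (TGF-β mean against IL-3), -0.97 to 5.12 (SCF plus TGF-β against TGF-β alone) and -0.66 to 5.44 (interaction). Genes called ranged from 237 to 1055 for SCF against IL-3, 58 to 170 and 131 to 292 for 1 and 10 ng/mL alone, 143 to 442 for their mean, 252 to 540 and 447 to 952 for 1 and 10 ng/mL added to SCF, 0 to 5 between doses, 1278 to 2799 for SCF plus TGF-β against TGF-β alone, and 0 to 30 for the interaction. At 2 libraries a group or fewer and 3 counts worth 1.26 to 2.55 CPM, Id1 and other genes of few counts were beyond what these depths can resolve.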
